A study of Rattus norvegicus with 16 samples.

Results

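The 26 genes described here encode the machinery of GABA signalling, the main fast inhibitory transmission of the brain, in poly(A) RNA of rat tissue labelled Central Amygdala. They were taken by name from a fixed list: 12 GABA-A receptor subunits, 4 GABA-B receptor subunits and auxiliary proteins, 5 genes of GABA synthesis, vesicular loading, uptake and breakdown, 2 chloride transporters and 3 genes of the inhibitory synapse scaffold and receptor trafficking. All 26 were found among the 33294 genes of the count table, and all 26 passed the filter on low counts. Gabra6 did so only through saline male replicates 4 and 6, at 0.749 and 0.691 CPM (counts scaled to a common library size), and held 51 reads in all 16 libraries together.

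The libraries came from 6 fentanyl males, 2 fentanyl females, 6 saline males and 2 saline females. They were the offspring of perinatal treatment with the synthetic opioid fentanyl or with saline, and all had gone through the sessions that the labels call IVSA without spelling it out. The rats were adult when tissue was taken, 1 day after their final session. The sources used here give no strain, exact age or litter, so p-values measure only the spread between these animals, littermates or not. The labels number the saline male libraries 1, 2 and 9 to 12 (here replicates 1 to 6), the fentanyl male libraries 1 to 6, the fentanyl females 1 and 2 and the saline females 10 and 11. What the numbers stand for is not stated.

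GABA is made from glutamate by decarboxylases, packed into vesicles, released, and cleared by uptake and breakdown. GABA-A receptors are pentameric chloride channels, and where they sit depends on their subunits. Delta-containing receptors, often paired with alpha-4, lie outside synapses and carry tonic inhibition, whereas gamma-containing receptors anchored by gephyrin lie largely at synapses. GABA-B receptors are G-protein-coupled heterodimers. The central amygdala and the striatum next to it consist mostly of GABAergic neurons.

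Total counts ran from 12879701 to 22426428 per library, and 13 mitochondrial genes took 8.44% to 17.7% of them, with the highest share in fentanyl male replicate 2. Markers of striatal spiny neurons were high: 18 of 19 passed the filter and Drd1, the D1 dopamine receptor, averaged 230 CPM (92.7 to 344). Of the central amygdala list all 16 passed, but several defining genes were low, with Prkcd at 16.8 CPM and Crh at 4.45 CPM on average. The mean of the striatal list was 8.53 ± 0.35 log2 CPM in fentanyl libraries and 7.95 ± 0.64 in saline libraries (SD, n = 8 each). That of the central amygdala list was 5.02 ± 0.35 in fentanyl and 4.92 ± 0.58 in saline libraries. Only 6 of 10 cortical and basolateral glutamatergic markers passed. Their mean was 5.46 log2 CPM in saline male replicate 3 and 3.41 to 4.08 in the other libraries, and Emx1 was at 0 in 7 libraries. Camk2a and Nrgn of the same list averaged 1192 and 907 CPM and were at 0 in none. In bulk tissue, fewer cells of a type and less RNA per cell cannot be told apart.

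The promoters of Gabrd, Gabra4 and Gphn are shown because these genes passed against fentanyl once saline males 1 and 2 were left out. In that setting exposure and library number cannot be told apart. They come from the RefSeq promoter table of build GRCr8 and run from 250 bases before to 50 bases after each gene's start. Capitals mark the GC box, GGGCGG, or its reverse complement.
Gabrd, chr5:171252660-171252959, minus strand: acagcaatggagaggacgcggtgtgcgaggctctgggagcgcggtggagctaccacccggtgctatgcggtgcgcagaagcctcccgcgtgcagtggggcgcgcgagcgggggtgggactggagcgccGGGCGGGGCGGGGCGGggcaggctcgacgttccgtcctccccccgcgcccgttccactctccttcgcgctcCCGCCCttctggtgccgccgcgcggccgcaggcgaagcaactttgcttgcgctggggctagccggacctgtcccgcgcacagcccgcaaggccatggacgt
Gabra4, chr14:36944497-36944796, plus strand: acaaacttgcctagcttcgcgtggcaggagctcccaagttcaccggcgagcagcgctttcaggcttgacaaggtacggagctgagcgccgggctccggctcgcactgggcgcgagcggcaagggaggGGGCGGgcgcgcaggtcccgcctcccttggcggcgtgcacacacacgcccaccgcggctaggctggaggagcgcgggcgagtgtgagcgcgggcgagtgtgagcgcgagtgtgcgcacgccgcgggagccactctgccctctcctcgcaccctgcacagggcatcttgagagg
Gphn, chr6:102687403-102687702, plus strand: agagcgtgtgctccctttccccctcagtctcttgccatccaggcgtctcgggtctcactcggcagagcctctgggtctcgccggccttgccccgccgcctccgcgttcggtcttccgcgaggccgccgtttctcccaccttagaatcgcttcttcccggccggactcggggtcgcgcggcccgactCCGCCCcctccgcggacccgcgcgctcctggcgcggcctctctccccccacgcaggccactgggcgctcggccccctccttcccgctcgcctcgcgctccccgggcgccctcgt
These windows held 4, 1 and 1 GC boxes. In Gabrd, 3 of the 4 overlap by their end bases. Of 23 promoters that could be matched to the 26 genes, 17 held a GC box, against 33.1% of all 33469 promoters in the table, and the median GC content was 68.3% in the 23 and 51.7% in all. The EGR motif, GCGNGGGCG on either strand, occurred in Gabra4, at 2 places, and in Gad1 and Kctd12, against 4.98% of all promoters. TGACGTCA, the full cAMP response element, occurred in none of the 23 and in 1.83% of all, and TATAAA in Gad1 and Gabra3 and in 14.2% of all. Each match describes the letters in these windows only.

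With sex as a term, none of the 26 genes passed the threshold between fentanyl and saline offspring. The smallest adjusted p was 0.412, for Gabrd, by the quasi-likelihood test of edgeR, adjusted after Benjamini-Hochberg over 17856 genes. Of all genes tested, 0.0784% passed. At an unadjusted p under 0.05 there were 1 higher (Gabrd) and 1 lower (Gabrg1) of 26, against 3.7% and 3.57% of all genes tested, and DESeq2 also called none, against 0.487% of all genes. Of the 26 log2 fold changes, 12 lay above 0 and 14 below, with a median of -0.03 against -0.01 over all genes tested. For none of the 26 did the fentanyl and saline libraries separate without overlap, against 0.0616% of all genes that were higher and 0.0392% that were lower without overlap.

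**Figure D1:**
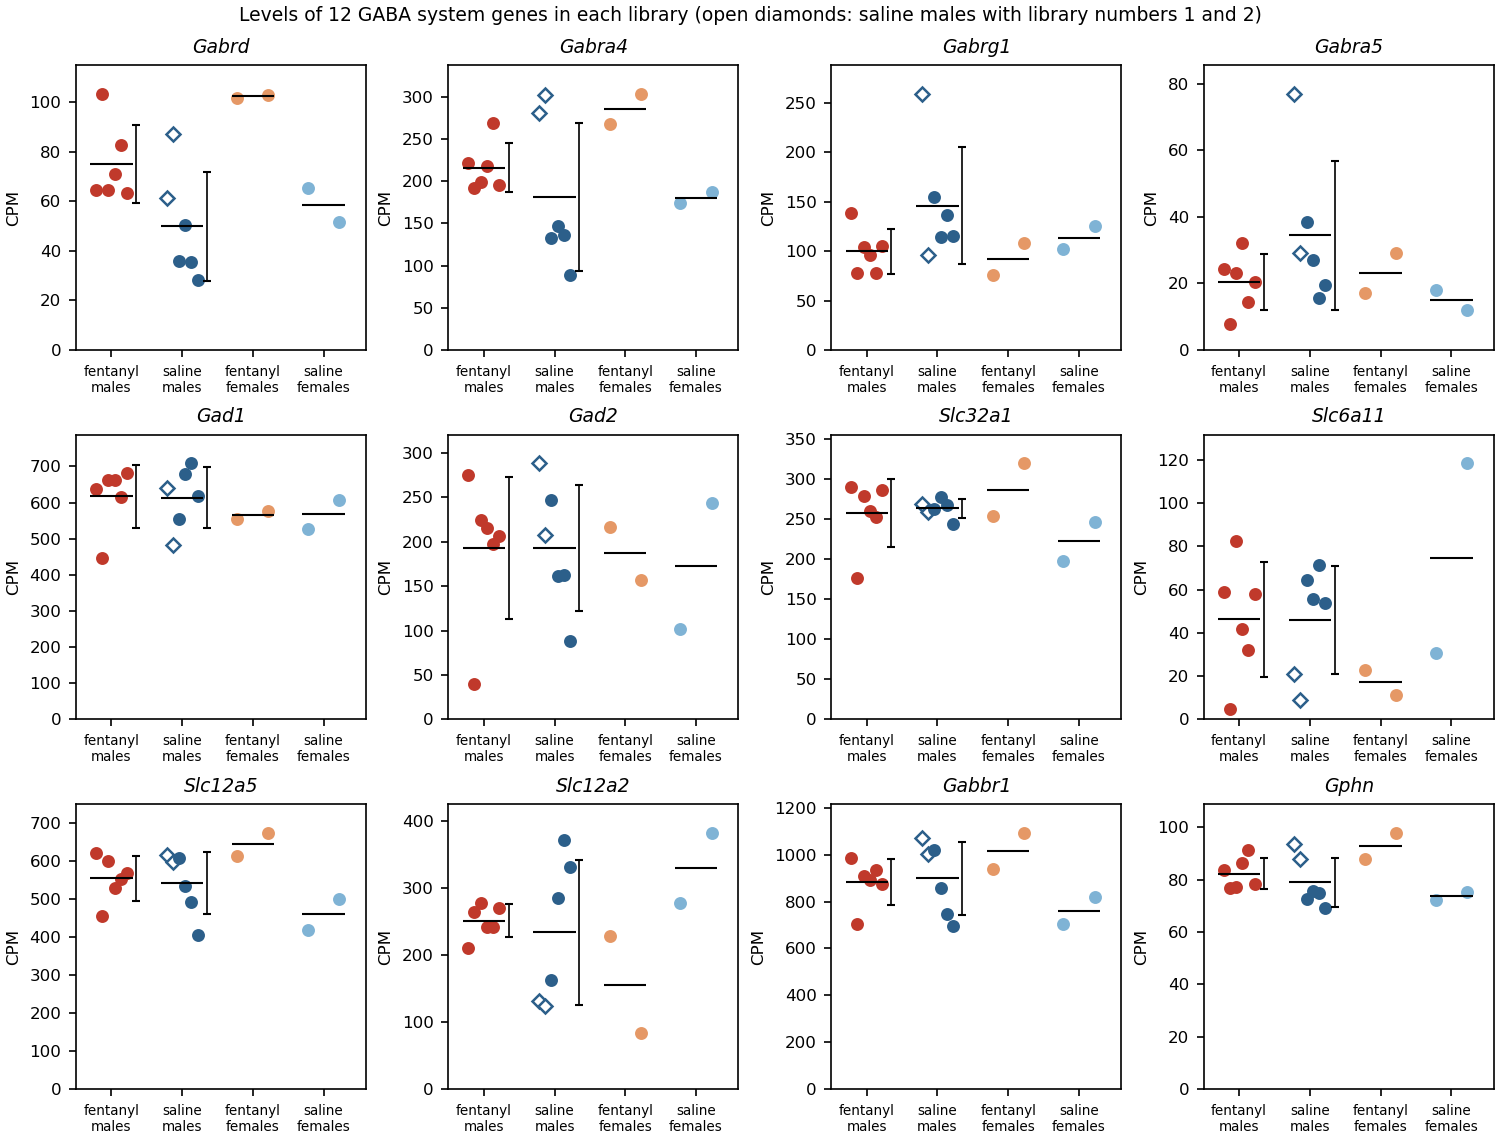
Levels of 12 GABA system genes in CPM, 1 point per library, in fentanyl males (n = 6), saline males (n = 6), fentanyl females (n = 2) and saline females (n = 2). Horizontal lines are group means, bars beside the male groups are ± 1 SD, and open diamonds are saline males with library numbers 1 and 2, which stand above the other 4 saline males for Gabrd and Gabra4 and below them for Slc12a2.

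Of the 12 GABA-A receptor subunits, 3 had log2 fold changes above 0 and 9 below, with a median of -0.14. Gabrd encodes the delta subunit of extrasynaptic receptors. It stood at 63.2 to 103 CPM in fentanyl libraries, with a median of 76.9, and at 28.4 to 87.3 CPM in saline libraries, with a median of 51.0. The lowest fentanyl library lay above 6 of the 8 saline libraries. The means were 81.8 ± 18.4 CPM in fentanyl and 52.0 ± 19.3 CPM in saline libraries (SD, n = 8 each). The log2 fold change was 0.64 ± 0.19 (SE; unadjusted p = 0.00397 and adjusted p = 0.412 by edgeR). Without saline male replicate 2, the highest saline library, the value was 0.82 ± 0.15 and passed (edgeR, adjusted p = 0.0409), 1 of the 26 genes against 0.118% of all genes called higher.

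Gabra4, the alpha-4 subunit, was at 192 to 304 CPM in fentanyl libraries (median 220) and at 88.6 to 302 CPM in saline libraries (median 160). Here too the lowest fentanyl library lay above 6 of the 8 saline libraries. Its log2 fold change was 0.36 ± 0.21 (SE; edgeR, adjusted p = 0.756). Gabrg1, the gamma-1 subunit, was at 75.8 to 139 CPM in fentanyl libraries (median 100.2) and at 96.5 to 260 CPM in saline libraries (median 120). The fold change was -0.49 ± 0.18 on the log2 scale (unadjusted p = 0.0177 and adjusted p = 0.591 by edgeR), and it was -0.30 without saline male replicate 1, the library at 260 CPM.

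Gabra2, an alpha subunit of synaptic receptors, averaged 148 ± 28.3 CPM in fentanyl and 150 ± 63.4 CPM in saline libraries (SD, n = 8 each), and the saline range of 84.0 to 278 CPM enclosed the fentanyl range of 86.3 to 185 CPM. Gabra5, an alpha subunit of extrasynaptic receptors best known from hippocampus, was at 7.84 to 32.2 CPM in fentanyl libraries (median 21.8) and 11.9 to 77.0 CPM in saline libraries (median 23.2). Its log2 fold change was -0.42 ± 0.35 over all libraries and -0.09 without saline male replicate 1, which held the 77.0 CPM.

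The remaining subunits gave log2 fold changes of -0.11 (Gabra3), -0.18 (Gabrb1), -0.16 (Gabrb2), -0.23 (Gabrg3), 0.20 (Gabre) and -0.04 (Gabrq), none past the threshold. Gabre and Gabrq, the epsilon and theta subunits, averaged 2.81 and 1.10 CPM in fentanyl libraries and 2.46 and 1.15 CPM in saline libraries. Gabra6, the alpha-6 subunit known from cerebellar granule cells, was at 0 to 0.306 CPM in fentanyl libraries and 0 to 0.749 CPM in saline libraries, too few reads to show a difference at this depth. Of 6 cerebellar granule neuron markers 3 passed the filter, and Fat2 was at 0 in 11 libraries.

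Gabbr1 and Gabbr2 encode the ligand-binding and the G-protein-coupling subunit of the GABA-B receptor, and Kctd12 and Kctd16 its auxiliary proteins. Gabbr1 was at 703 to 1094 CPM in fentanyl libraries (median 923) and 695 to 1072 CPM in saline libraries (median 838). Gabbr2 was at 35.8 to 77.8 CPM in fentanyl libraries (median 57.3) and 38.8 to 107 CPM in saline libraries (median 64.1). The ranges of Gabbr1 overlapped almost entirely, and the highest saline value of Gabbr2 lay above its fentanyl range. Log2 fold changes of these genes were 0.09 (Gabbr1), -0.15 (Gabbr2), -0.08 (Kctd12) and 0.19 (Kctd16), and none passed.

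Gad1 and Gad2 encode the GABA-producing decarboxylases GAD67 and GAD65. Gad1 averaged 605 ± 77.9 CPM in fentanyl and 602 ± 76.8 CPM in saline libraries (SD, n = 8 each). The log2 fold change was 0.01, with a 95% interval of -0.21 to 0.22. Gad2 was far more variable, at 40.0 to 275 CPM in fentanyl libraries (median 211) and 88.8 to 288 CPM in saline libraries (median 185), with a log2 fold change of 0.03 and an interval of -0.61 to 0.68. Slc32a1, the vesicular GABA transporter, averaged 265 ± 42.3 CPM in fentanyl and 254 ± 25.0 CPM in saline libraries (log2 fold change 0.07, interval -0.16 to 0.29). Abat, the transaminase that breaks GABA down, averaged 355 ± 50.3 CPM in fentanyl and 370 ± 45.4 CPM in saline libraries (log2 fold change -0.06, interval -0.28 to 0.16). The intervals of Gad1, Slc32a1 and Abat were narrow, and that of Gad2 was wide.

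Slc6a11, the astrocytic GABA transporter GAT3, was at 4.74 to 82.6 CPM in fentanyl libraries (median 36.9) and 8.86 to 118 CPM in saline libraries (median 54.8). Its 95% interval of -1.61 to 0.65 on the log2 scale allows large differences either way. Of the chloride transporters, Slc12a5 (KCC2), which exports chloride from mature neurons, was at 454 to 675 CPM in fentanyl libraries (median 584) and 406 to 616 CPM in saline libraries (median 517). Slc12a2 (NKCC1), which imports chloride, was at 83.1 to 277 CPM in fentanyl libraries (median 241) and 124 to 382 CPM in saline libraries (median 281). Their log2 fold changes were 0.14 ± 0.11 and -0.19 ± 0.27 (SE), neither past the threshold.

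Gphn encodes gephyrin, the scaffold under glycine and GABA-A receptors. It was at 76.7 to 98.0 CPM in fentanyl libraries (median 85.2) and 69.3 to 93.5 CPM in saline libraries (median 75.0). The log2 fold change was 0.13 ± 0.08 (SE; edgeR, adjusted p = 0.759), and every fentanyl library lay above the saline median. Nlgn2, the adhesion protein of inhibitory synapses, and Gabarap, a receptor trafficking protein, had values of 0.02 and 0.01. Gabarap varied least of the 26 genes over the 16 libraries, with an SD of 0.14 on the log2 scale.

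**Figure D2:**
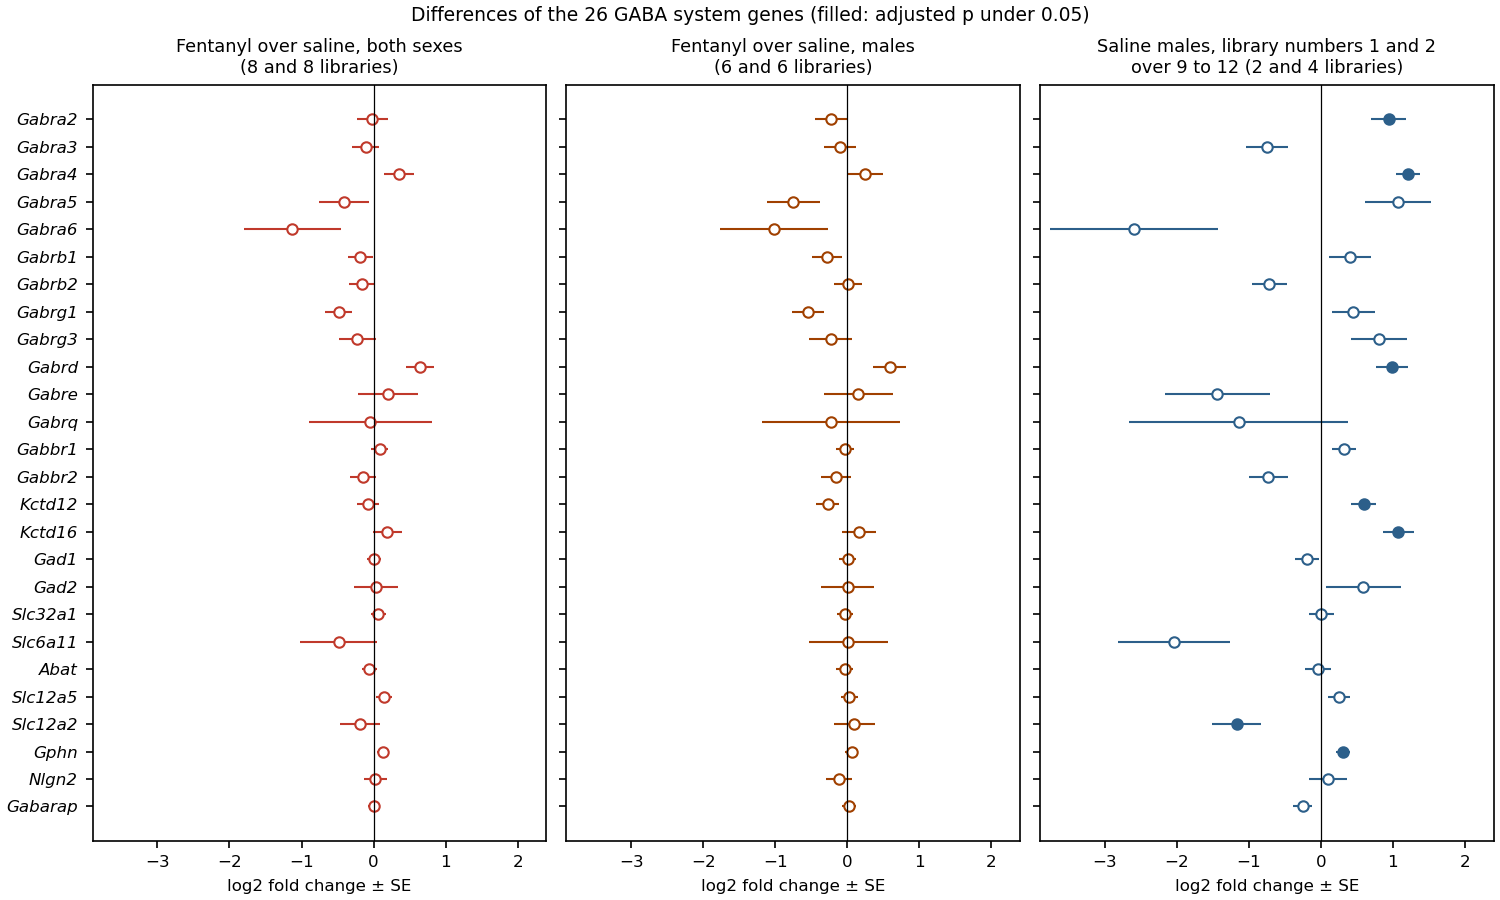
Log2 fold change of each of the 26 GABA system genes with its standard error (bars), for fentanyl over saline in both sexes (8 and 8 libraries), for fentanyl over saline in males (6 and 6) and for saline males with library numbers 1 and 2 over those with 9 to 12 (2 and 4). Filled points passed an adjusted p of 0.05: none in either exposure comparison and 7 between the sets of saline males.

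In males alone none of the 26 passed, against 0.0392% of all genes tested. Gabrd (0.59 ± 0.23, SE) and Gabrg1 (-0.54 ± 0.22) again had the smallest unadjusted p and were the only 2 of 26 under 0.05, against 4.13% of all genes. These were 0.0199 and 0.0233, with an adjusted p of 0.9998 for both by edgeR. In females, with 2 libraries in each group and the spread shared with the males, none passed, as for all genes (0%), and 4 of the 26 were under 0.05 unadjusted, against 14.3% of all genes. These were Slc12a5 at 0.49 ± 0.20 and Gphn at 0.33 ± 0.15, with positive log2 fold changes, and Slc12a2 at -1.08 ± 0.50 and Slc6a11 at -2.12 ± 0.99, with negative ones (edgeR, adjusted p = 0.337 to 0.349). Slc12a2 stood at 228 and 83.1 CPM in fentanyl females and at 277 and 382 CPM in saline females. Slc6a11 stood at 23.0 and 11.3 CPM in fentanyl females and at 30.7 and 118 CPM in saline females. The groups of females did not overlap for 9 genes that were higher after fentanyl and 4 that were lower, against 24.1% and 24.7% of all genes. Exposure and library number cannot be told apart in females, since the fentanyl females are numbers 1 and 2 and the saline females 10 and 11.

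The difference between the male and female contrasts was tested directly, and none of the 26 passed, as for all genes (0%). Kctd12 was the 1 gene under 0.05 unadjusted, against 8.23% of all genes: its log2 fold change was -0.27 in males and 0.51 in females, a difference of 0.78 ± 0.31 (unadjusted p = 0.0246 and adjusted p = 0.570 by edgeR). Kctd12 was at 94.0 and 112 CPM in fentanyl females, against 64.0 and 81.0 CPM in saline females. In males it was at 65.3 to 94.0 CPM (median 89.5) after fentanyl and 72.2 to 147 CPM (median 100.1) after saline. Slc12a2 was next, with a difference of -1.18 ± 0.57 (unadjusted p = 0.0544 by edgeR). Between females and males, adjusted for exposure, none of the 26 passed, against 0.056% of all genes tested, and none was under 0.05 unadjusted, against 2.52%. The smallest p was that of Gabre, at 1.47 ± 0.39 CPM in 4 females and 3.02 ± 2.01 CPM in 12 males (log2 fold change -1.04 ± 0.52, SE; unadjusted p = 0.0605 by edgeR), followed by Gabra6 at -1.52 ± 0.90.

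More of the 26 genes passed inside the saline group than between exposures. The same held for all genes tested, of which 0.0784% passed between exposures. Saline males with library numbers 1 and 2 differed from those with numbers 9 to 12 in 7 of the 26 genes, 6 higher and 1 lower, against 17.9% of all genes tested (8.27% higher and 9.66% lower; quasi-likelihood test of edgeR, adjusted after Benjamini-Hochberg). That is 26.9% of the 26. This split was known from earlier results of these data and is a description of the control group. Gabra4 was at 280 and 302 CPM in numbers 1 and 2 and at 132, 146, 136 and 88.6 CPM in numbers 9 to 12, with no overlap (log2 fold change 1.21 ± 0.17, SE; adjusted p = 0.000982). Kctd16 was at 143 and 164 CPM in numbers 1 and 2, against 90.0, 78.9, 78.8 and 43.4 CPM in numbers 9 to 12 (1.08 ± 0.22; adjusted p = 0.00603). Gabrd was at 61.3 and 87.3 CPM in numbers 1 and 2, against 36.0, 50.4, 35.7 and 28.4 CPM in numbers 9 to 12 (0.98 ± 0.22; adjusted p = 0.00913).

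Gabra2 was at 278 and 199 CPM in numbers 1 and 2 and at 170, 127, 116 and 84.0 CPM in numbers 9 to 12 (0.94 ± 0.24; adjusted p = 0.0163 by edgeR). Kctd12 (0.59 ± 0.18) and Gphn (0.31 ± 0.10) were also higher, with adjusted p of 0.0307 and 0.0362. Slc12a2 was the 1 gene that was lower, at 131 and 124 CPM in numbers 1 and 2, against 162, 284, 370 and 330 CPM in numbers 9 to 12 (-1.17 ± 0.34; adjusted p = 0.0282 by edgeR). The groups did not overlap for 7 higher and 6 lower genes of the 26, against 22.6% and 22.2% of all genes. The count of 7 depended on single libraries. It was 3 without saline male replicate 1, against 6.92% of all genes, and 1 without saline male replicate 2, against 1.09%. It was 4 without saline male replicate 5, against 12.4%, and 4 of 25 tested without saline male replicate 6, against 10.7%. It was 12 without saline male replicate 3, against 22.8%, and 12 without fentanyl male replicate 2, against 23.7%. The share of all genes called was lower and higher in the same settings.

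Along the same split the striatal list averaged 8.77 log2 CPM in numbers 1 and 2 and 7.46 in numbers 9 to 12, and the myelin list, 13 of 13 genes, 7.83 and 9.10. In females the striatal list averaged 8.95 in fentanyl and 8.10 in saline libraries and the myelin list 8.21 in fentanyl and 9.34 in saline libraries. The part of these lists in the values above was not tested. Which GABA genes passed against fentanyl changed with the saline males used. Without saline males 1 and 2, Gabrd was 0.95 ± 0.14 higher on the log2 scale (SE; edgeR, adjusted p = 0.00407), Gabra4 0.75 ± 0.11 (adjusted p = 0.00407) and Gphn 0.22 ± 0.06 (adjusted p = 0.0497), 3 of the 26 against 4.23% of all genes called higher. Gabrd (1.00 ± 0.17; adjusted p = 0.0348) and Gabra4 (0.78 ± 0.14; adjusted p = 0.0361) also passed in males, 2 of the 26 against 0.321% of all genes. Without saline males 9 to 12, none of the 25 then tested (Gabra6 left out by the filter) passed in both sexes, against 0.0229% of all genes. In males 2 of the 25 were lower, against 2.14% of all genes: Gabra2 at -0.78 ± 0.19 and Kctd12 at -0.64 ± 0.15 (edgeR, adjusted p = 0.0373 and 0.0294). With all 16 libraries but weights by library quality (limma voom), Gabrd at 0.69 ± 0.13, Gabra4 at 0.60 ± 0.13 and Kctd16 at 0.53 ± 0.14 were higher after fentanyl (adjusted p = 0.0103, 0.0218 and 0.0362), 3 of 26 against 3.71% of all genes.

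**Figure D3:**
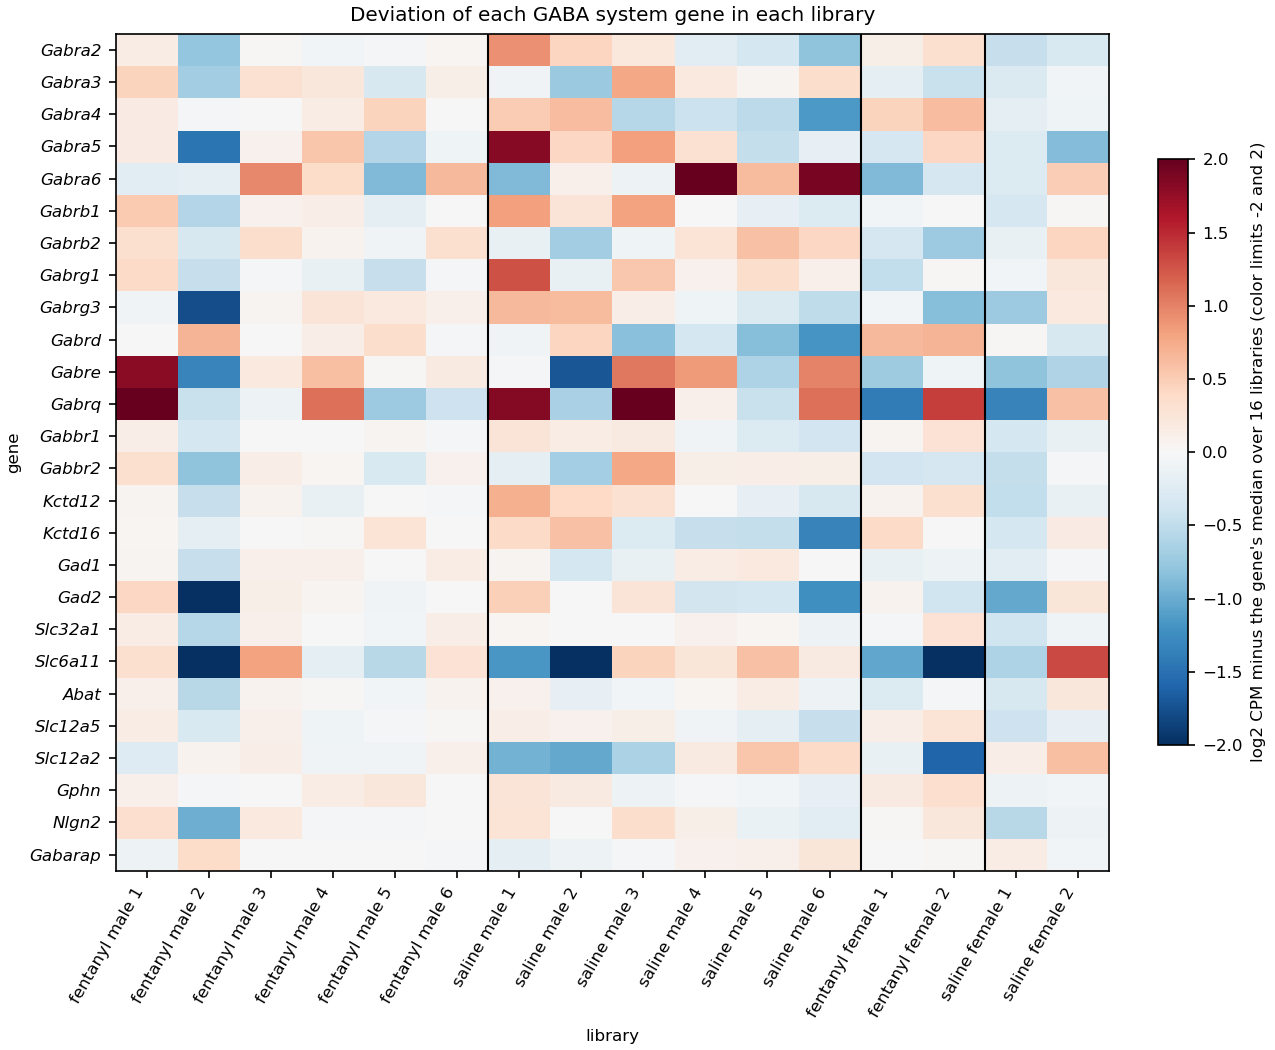
Deviation of each of the 26 GABA system genes in each library from the gene's median over all 16 libraries, in log2 CPM, with colours limited at -2 and 2. Fentanyl male replicate 2 is below the median in 23 of the 26 genes, as is saline female replicate 1, and Gabrq and Slc6a11 have the widest spread within each of the male groups.

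The 26 genes varied more between libraries than most. Their median SD of log2 CPM over 16 libraries was 0.43, against 0.30 for all genes tested and 0.21 for genes at 10 CPM or more. Gabrq (1.55), Slc6a11 (1.27), Gabre (0.93), Gabra6 (0.88), Gabra5 (0.75) and Gad2 (0.73) varied most. The SD was larger in saline than in fentanyl males for 17 of the 26, against 56.8% of all genes tested. Fentanyl male replicate 2 was lowest of the 16 libraries in 10 genes, and saline male replicate 6 in 7. Saline male replicate 1 was highest in 7.

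Several pairs whose products act together varied together over the 16 libraries. The 8 pairs were chosen by role, with earlier results of these data known. How often other pairs of genes reach such values was not tested. Gabra4 and Gabrd, the partners in extrasynaptic receptors, had a Pearson r of 0.861 (adjusted permutation p = 0.00048). Their Spearman rho was 0.718 (adjusted permutation p = 0.00568). The r was 0.765 without the 2 libraries farthest from the Gabra4 median, 0.555 in fentanyl and 0.907 in saline libraries. Each of these 2 genes also went with the striatal list (r of 0.963 for Gabra4 and 0.904 for Gabrd). The part of that list in their relation was not tested. Gabra2 and Gabrb1, which share a gene cluster on chromosome 14 with Gabra4 and Gabrg1 in assembly GRCr8, had an r of 0.795 (adjusted permutation p = 0.00144; rho 0.741) and 0.704 without the 2 farthest libraries. Gabre and Gabrq, near each other on chromosome X, had an r of 0.728 (adjusted permutation p = 0.00296; rho 0.712) and 0.622 without the 2 farthest.

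Slc12a5 and Slc12a2, the exporter and the importer of chloride, varied in opposite directions, with an r of -0.692 (adjusted permutation p = 0.0064; rho -0.764), -0.746 without the 2 farthest libraries, -0.613 in fentanyl and -0.763 in saline libraries. Gad1 and Slc32a1 had an r of 0.648 (adjusted permutation p = 0.0135) and a rho of 0.567 (adjusted permutation p = 0.0377). The r was 0.468 without fentanyl male replicate 2 and saline male replicate 2 (permutation p = 0.0887), so it was weaker without those libraries. Gad1 and Gad2 had an r of 0.522 (adjusted permutation p = 0.0505, rho 0.175) and 0.202 without the same libraries. Their r was 0.878 in fentanyl and -0.007 in saline libraries. Gphn with Nlgn2 (0.388) and Gabbr1 with Gabbr2 (0.172) did not pass, with adjusted permutation p of 0.158 and 0.525.

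**Figure D4:**
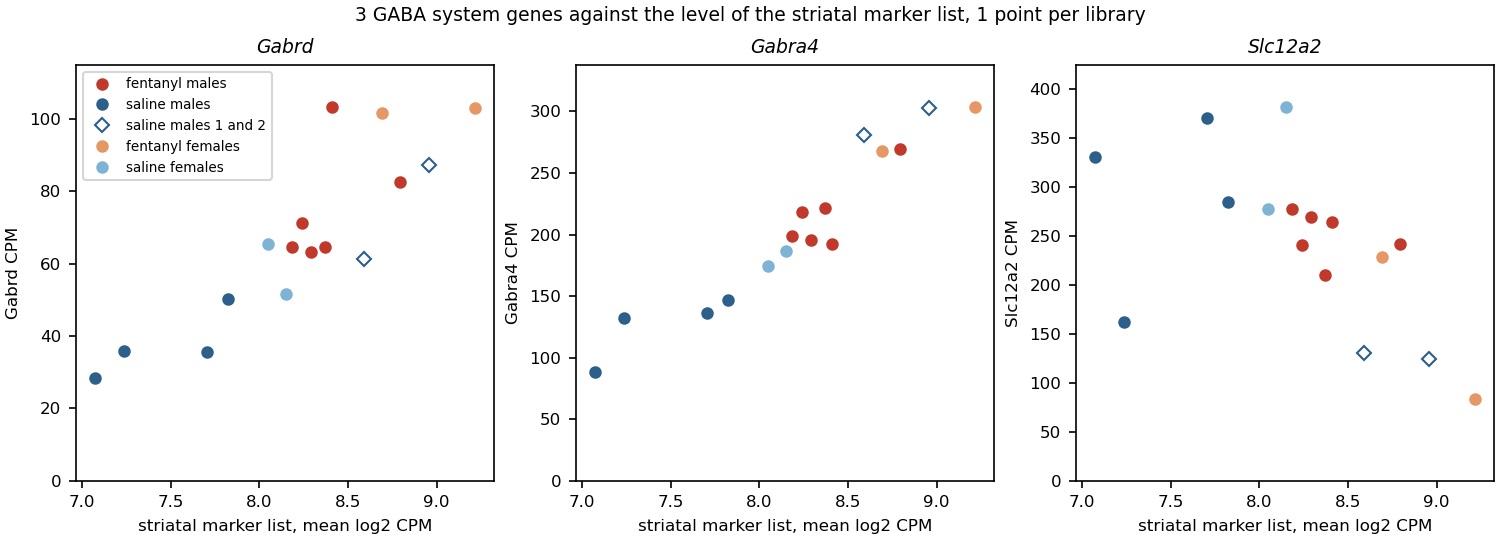
Gabrd, Gabra4 and Slc12a2 in CPM (vertical axes) against the mean log2 CPM of the striatal spiny neuron list (horizontal axes), 1 point per library, with saline males 1 and 2 as open diamonds. Gabrd and Gabra4 go up with the list across both exposures, and Slc12a2 goes down except in saline male replicate 3, at 162 CPM and 7.24 on the list. The myelin list stood at 8.24 log2 CPM in that library and averaged 9.10 over saline males 9 to 12, which include it.

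Each of the 26 genes was also set against the mean of the striatal list, a relation chosen after the values were seen. After adjustment over the 26, r was positive past the threshold for 4 genes, at 0.804 or above, and negative for 5, at -0.598 or below. Of all 17856 genes tested, 3.8% lay at or above the same positive limit and 11.3% at or below the same negative one. Each limit is the r of the weakest passing gene among the 26, Kctd16 and Slc6a11. Since Slc6a11 passed at -0.598, the threshold itself lies nearer to 0 than the positive limit. The share of all genes past that threshold was not counted and would be larger than 3.8% on the positive side. Gabra4 had an r of 0.963 and a rho of 0.953 (adjusted permutation p = 0.00013 for both, from 1e-05, the smallest that these permutations give). It had 0.952 without saline male replicates 3 and 6, the libraries farthest from the median of the list, 0.912 in fentanyl and 0.968 in saline libraries. Gabrd had an r of 0.904 (adjusted permutation p = 0.00013; rho 0.829), 0.817 without those libraries, 0.709 in fentanyl and 0.931 in saline libraries. Gphn had an r of 0.868 (adjusted permutation p = 0.000173; rho 0.915) and 0.855 without them. Kctd16 had an r of 0.804 (adjusted permutation p = 0.000845; rho 0.750) and 0.728 without them, with 0.303 in fentanyl and 0.885 in saline libraries.

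The 5 genes with a negative r were Gabra3 (-0.716), Gabrb2 (-0.667), Gabbr2 (-0.660), Gabra6 (-0.626) and Slc6a11 (-0.598). Gabra6 has 51 reads in all, 12 each in saline male replicates 4 and 6, so its value is no finding at this depth. Without saline male replicates 3 and 6 these were -0.581, -0.834, -0.531, -0.654 and -0.648, and that of Gabbr2 then had an unadjusted permutation p of 0.0521. Slc12a2 had an r of -0.577 (adjusted permutation p = 0.0506; rho -0.695) and -0.837 without them. Gad1 (-0.270), Slc32a1 (0.170) and Abat (-0.130) did not pass. Slc12a2 also rose with the myelin list over the group means, a relation that was not tested. Saline males 1 and 2 averaged 127.5 CPM with the myelin list at 7.83, and fentanyl females 156 CPM at 8.21. The mean was 251 CPM at 8.92 in fentanyl males, 287 CPM at 9.10 in saline males 9 to 12 and 330 CPM at 9.34 in saline females. The part of either list in the opposite course of Slc12a5 and Slc12a2 was not tested.

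**Figure D5:**
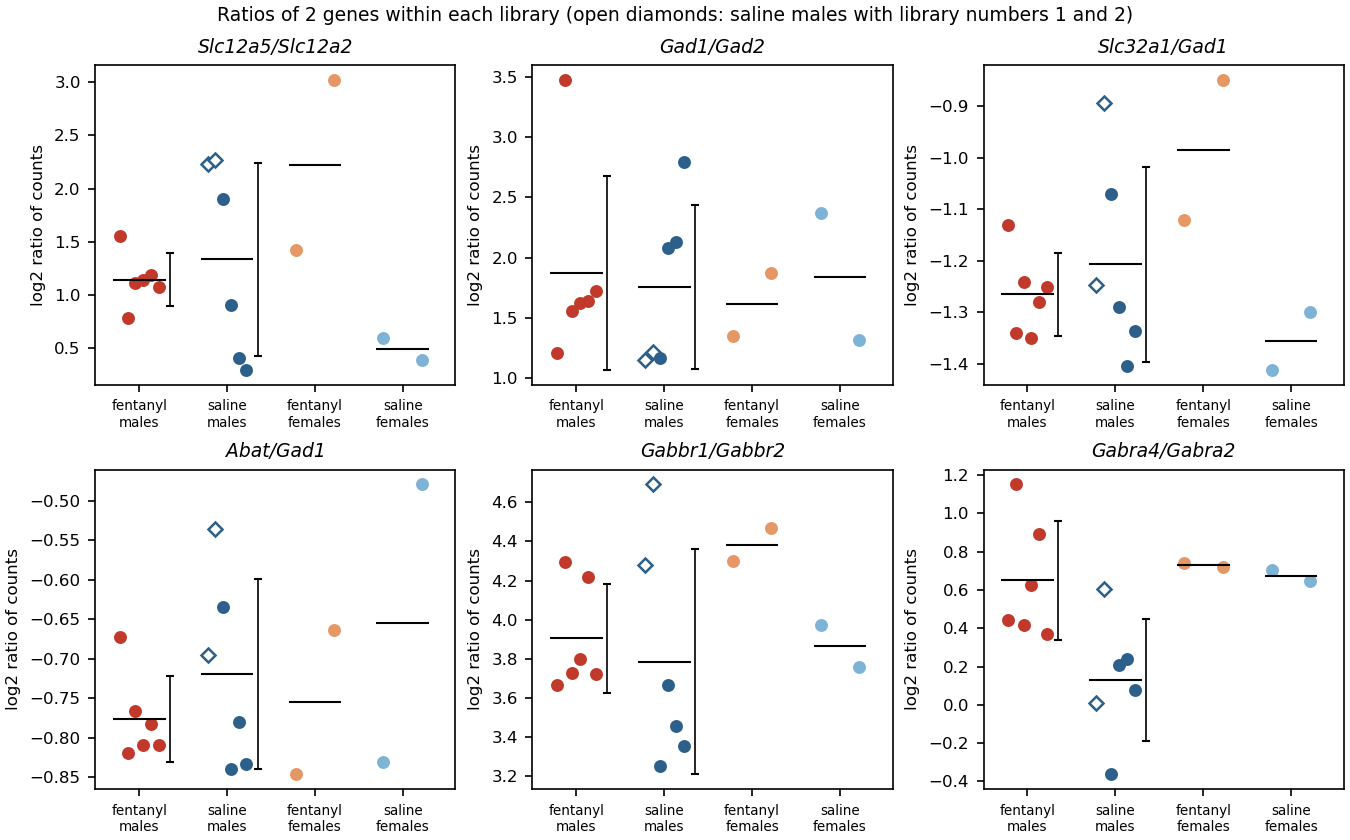
Log2 ratios of the counts of 2 genes within each library for 6 pairs of GABA system genes, with group means (lines) and ± 1 SD for the male groups (bars). Open diamonds are saline males with library numbers 1 and 2, which lie above the other saline males for Slc12a5/Slc12a2 and Gabbr1/Gabbr2.

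Ratios of 2 genes within a library do not depend on how libraries are scaled. Of 6 ratios, that of Gabra4 to Gabra2 counts had the smallest p. Its log2 mean was 0.67 ± 0.27 in fentanyl and 0.27 ± 0.37 in saline libraries (SD, n = 8 each), a difference of 0.40 that did not pass adjustment over the 6 (exact two-sided permutation test, p = 0.0242, adjusted p = 0.146; smallest possible p 0.000155). The ranges, 0.37 to 1.15 in fentanyl and -0.36 to 0.70 in saline libraries, overlapped. This test had no term for sex. In females the mean was 0.73 after fentanyl and 0.67 after saline. In males it was 0.65 after fentanyl, 0.31 in saline numbers 1 and 2 and 0.04 in saline numbers 9 to 12. Slc12a5 to Slc12a2, often read as a measure of chloride export against import, averaged 1.41 ± 0.69 in fentanyl and 1.13 ± 0.86 in saline libraries (exact permutation p = 0.475). Within the saline males it averaged 2.25 in numbers 1 and 2 and 0.88 in numbers 9 to 12. Gad1 to Gad2 averaged 1.81 ± 0.71 in fentanyl and 1.78 ± 0.64 in saline libraries (exact permutation p = 0.932). Gabbr1 to Gabbr2 differed by 0.22, Slc32a1 to Gad1 by 0.05 and Abat to Gad1 by -0.07 (exact permutation p = 0.307, 0.571 and 0.257).

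Of 41 further genes of the GABA pathway, listed by role, 38 passed the filter on low counts and none passed the exposure test in both sexes, against 0.0784% of all genes. Their median log2 fold change was -0.02, with 17 above 0 and 21 below. At an unadjusted p under 0.05 there were 2 higher and 1 lower, against 3.7% and 3.57% of all genes. Car7, a carbonic anhydrase that supplies bicarbonate to neurons, had 0.45 ± 0.14 (SE; adjusted p = 0.418 by edgeR). Insyn1 and Insyn2a, both proteins of the inhibitory postsynaptic density, had 0.37 ± 0.13 and -0.44 ± 0.20 (adjusted p = 0.543 and 0.687 by edgeR). Between saline males 1 and 2 and 9 to 12, 9 of the 38 passed, 6 higher and 3 lower, against 17.9% of all genes.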

How the data were processed

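Poly(A) RNA of 16 libraries was extracted with Trizol and prepared with NEBNext kits, per the labels' protocols. The deposited counts are whole reads per gene with no normalization. The submitters' processing notes name build rn7 and the tools Trimmomatic, STAR, HTSeq and DESeq2. Strand setting, annotation and versions were not stated there. Antisense and overlapping genes may therefore share reads. Columns were matched to samples by library name. Chi-square per gene was at least 4.08 in all 120 library pairs, so each library counted as 1 sample.

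Counts were fitted in R 4.3.3 with edgeR 4.0.16 (filterByExpr by the 4 groups, minimum 0.603 CPM, 17856 of 33294 genes; TMM; robust quasi-likelihood), with Benjamini-Hochberg adjustment over all genes tested at 0.05. CPM are counts scaled by TMM library sizes, and log2 CPM have a prior count of 2. Standard errors came from the fold change and its F statistic. Sex was a term in the fit of all fentanyl against all saline libraries. Sex-specific contrasts came from a fit of 4 groups, and the contrast of saline males by library number from a fit of 5, all over 16 libraries. Ratios had a pseudocount of 0.5. Their test was the exact permutation test over samples (12870 assignments of 8 and 8). With the replicate number as a block, the signs of the differences within same-numbered pairs were flipped instead. Correlations used 100000 permutations. Steps were tested on simulated counts.

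The genes, lists, pairs and the library-number split were chosen with earlier results of these data known. All 26 genes are accounted for. Full values go to those past the threshold in any comparison, to the 4 with the smallest p over both sexes and the 2 in each other comparison, and to 12 chosen by role. Gene names and order and promoters came from RefSeq tables of assembly GRCr8. The sequences are not of the build used for counting. Alternatives were RLE factors, no low-count filter, DESeq2 1.42.0, limma 3.58.1 voom with quality weights, the replicate number as a block, no sex term, females alone, library-number subsets and each library left out. Sets of libraries left out together with fentanyl male replicate 2, and a crossed block in females, were added after seeing the data.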

Additional observations from a re-analysis of the deposited data

Results flagged for a closer look

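In male groups of 6, a library was singled out where its gap to the nearest other library, divided by the range of the group, exceeded Dixon's 95% limit. This gave 14 flags in 64 checks of genes and ratios. Chance flags about 1 in 20 groups.

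Of the 14, 8 were fentanyl male replicate 2, the library with the highest mitochondrial share, 17.7%. It was lowest of the fentanyl males for Gabra2 at 86.34 CPM, Gabrg3 at 2.947 CPM, Gad1 at 446.2 CPM, Gad2 at 40.04 CPM, Slc32a1 at 176.4 CPM and Abat at 252.8 CPM. It was highest for Gabarap at 158.4 CPM and for the log2 ratio of Gad1 to Gad2 counts at 3.477. The genes of GABA synthesis, vesicular loading and breakdown thus stood low together in that library, and the part of the mitochondrial share in this was not tested. Without it the log2 fold change over both sexes was 0.07 for Gad1, 0.20 for Gad2, 0.15 for Slc32a1 and 0.01 for Abat, none past the threshold (edgeR).

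Fentanyl male replicate 1 was highest for the epsilon and theta subunits, Gabre at 7.827 CPM and Gabrq at 5.904 CPM, and for the log2 ratio of Abat to Gad1 at -0.6722. Saline male replicate 3 was highest for Gabrq at 5.453 CPM, and it was also the library with the highest mean of the cortical and basolateral list, 5.46 log2 CPM. Saline male replicate 1 was highest for Gabra5 at 77.0 CPM and Gabrg1 at 259.5 CPM.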

How the results depend on the processing

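Over both sexes 0 of the 26 genes passed under RLE factors, no low-count filter, DESeq2 and no sex term, and 0 of the 25 then tested without saline males 9 to 12. The count was 3 with voom weights, 3 without saline males 1 and 2, 3 with voom weights when fentanyl male replicate 2 was also left out, and 4 with edgeR when that library and saline males 1 and 2 were left out (Gabrd, Gabra4, Kctd16 and Gphn), against 5.63%, 6.9%, 6.3% and 10.8% of all genes in that order. Leaving out 1 library gave 0 to 1, the 1 being Gabrd without saline male replicate 2. The other GABA pathway genes gave 3, 6, 5 and 10 calls of 38 under the same settings. In males the count was 2 without saline males 1 and 2, 2 without 9 to 12 and 2 without fentanyl male replicate 2 and saline males 1 and 2, against 0.4%, 5.47% and 0.969% of all genes. The 7 calls between saline males 1 and 2 and 9 to 12 became 15 with voom weights, against 31.9% of all genes, and 1 to 12 with 1 library left out, against 1.09% to 23.7%. All counts in females, of the difference between the sexes and of female against male stayed at 0, also in the female libraries alone (smallest adjusted p 0.0817 by edgeR). Few of all genes passed there either. The share was 0.387% in the female libraries alone and 0.112% for females by DESeq2. It was at most 0.0281% for the difference between the sexes and 0.084% for female against male. Ratio differences became -0.193 (Slc12a5 to Slc12a2) and -0.0584 (Slc32a1 to Gad1) in males only, -0.168 (Gad1 to Gad2) without saline males 1 and 2, -0.152 (Gabbr1 to Gabbr2) without 9 to 12, and -0.406 (Gad1 to Gad2) without fentanyl male replicate 2 and saline males 1 and 2. With 1 library left out they were -0.208 to 0.176 (Gad1 to Gad2) and -0.00052 to 0.0989 (Slc32a1 to Gad1). None of these passed. The correlation of Gad1 with Gad2 passed without saline males 1 and 2 (0.629, adjusted permutation p = 0.0284) and on residuals after exposure and sex means (0.541, adjusted permutation p = 0.0487). Both settings keep fentanyl male replicate 2, the lowest of all libraries for Gad1 and for Gad2. The cause of these changes was not tested.

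With the replicate number as a block 0 of the 26 genes passed over both sexes (smallest adjusted p 0.15 by edgeR, for Gabrd), and 2 genes passed in all. The Gabra4 to Gabra2 ratio then passed, with the same difference of 0.404 (exact sign-flip test of the differences within same-numbered pairs, adjusted p = 0.0469). The ratio was higher in the fentanyl library of all 6 male and 2 female pairs. The unadjusted p was thus the smallest that this test can give. Deviations of same-numbered libraries correlated at -0.069 to 0.209 in the 6 male pairs, and over 0.1 in 2 of them. In the 2 female pairs the value was -0.172. That is 1 value, since deviations from the mean of 2 libraries mirror each other. These correlations cannot show whether same-numbered libraries share more than a number. Not every library correlated best with its own number. Crossing the female numbers, a setting chosen after seeing the data, also gave 0 calls. At 51 reads in all, Gabra6 could show no difference at this depth, and Gabre and Gabrq rest on few reads.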

Other observations

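Of the 38 further GABA pathway genes tested, 9 differed between saline males with library numbers 1 and 2 and those with 9 to 12, against 17.9% of all genes tested. The 6 that were higher in numbers 1 and 2 were led by Akap5, a postsynaptic anchor of protein kinase A, with a log2 fold change of 1.51 ± 0.22 (SE; edgeR, adjusted p = 0.00108), and Kctd8, an auxiliary protein of the GABA-B receptor, at 1.52 ± 0.24 (edgeR, adjusted p = 0.00184). Shisa7, an auxiliary protein of GABA-A receptors, was higher by 0.95 ± 0.21 (edgeR, adjusted p = 0.00886). The 3 that were lower were Iqsec3, a protein of inhibitory synapses, at -1.68 ± 0.39, Glul, the astrocytic glutamine synthetase, at -0.90 ± 0.20, and Slc38a2, a glutamine transporter, at -0.66 ± 0.21 (edgeR, adjusted p = 0.00991, 0.00819 and 0.043).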
